A study of Macaca mulatta with 6 samples.

Results

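The genes described here make cholesterol, move and store it, sense its level, or turn it into oxysterols, which are cholesterol molecules with an added oxygen. They were taken from a list of 39 gene symbols, which stand for 37 genes because SC4MOL is the older name of MSMO1 and SC5DL that of SC5D. A gene was counted as measured where a probe set of the array carried its symbol in the platform annotation, and this gave 29 genes with 55 probe sets, out of 14132 named genes and 52024 probe sets in all. The remaining 8 genes (CYP27A1, HMGCS1, LSS, MSMO1, SC5D, LRP1, ABCG1 and SOAT1) had no probe set under their symbol and were not analysed here. Each gene was represented by the probe set with the highest mean signal over all arrays, called its brightest probe set, and the others were noted.

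Treated retinas were those on the side of an intraorbital optic nerve that had been irradiated by gamma knife surgery (GKS) with a prescribed dose of 15 Gy, and control retinas were those of the opposite eye of the same animals, which were 3 male rhesus macaques of 8 to 10 years. Both retinas were taken 24 h after the treatment and dissected without the retinal pigment epithelium, and RNA came from the temporal part, so every sample was a mixture of all neural, glial and vascular cells of that tissue. The dose to the eyeball itself was 3 Gy for treated and 1 Gy for control retinas, so that exposure of the eye and injury of the nerve cannot be told apart, and no group was without radiation. Each retina was hybridized to 1 Affymetrix Rhesus Macaque Genome Array, giving 3 treated and 3 control arrays, and the values are log2 signals of the MAS 5.0 algorithm, on which a difference of 1 is a factor of 2.

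Cholesterol does not cross the barrier between blood and retina freely, and the neural retina both makes its own, Müller glia included, and takes up lipoprotein cholesterol by way of the pigment epithelium. Synthesis starts with the mevalonate pathway, goes on through squalene and lanosterol, and is switched on by the SREBP transcription factors when sterol falls. Oxysterols do the opposite: they hold SREBP back through the INSIG proteins and activate the liver X receptors (LXR), which raise cholesterol export. Oxysterols can be made in neurons by CYP46A1 and, in activated macrophages and microglia, by CH25H, which is also induced by interferon.

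None of the 29 genes passed the paired test after adjustment over all probe sets (limma, adjusted p under 0.05, 0 higher and 0 lower). Of all named genes, 0.205% were higher and 0.00708% lower at that threshold. Before adjustment, with p under 0.05, CH25H and HSD17B7 were higher, which is 2 of 29 genes where 5.02% of all named genes were, and 0 were lower where 3.01% were. By the methods' paired t-test, CH25H alone was higher at an unadjusted p under 0.05 and 0 genes passed after adjustment. The median log2 difference of the 29 genes was 0.095, beside 0.032 over all named genes. Of the 29, 19 lay above 0 in the deposited values (55.5% of all named genes), 18 with quantile normalization (58.2%) and 27 with median centring of the arrays (69.5%). Median centring adds the same 0.097 to the difference of every gene, so the higher count there follows from that shift.

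**Figure D1:**
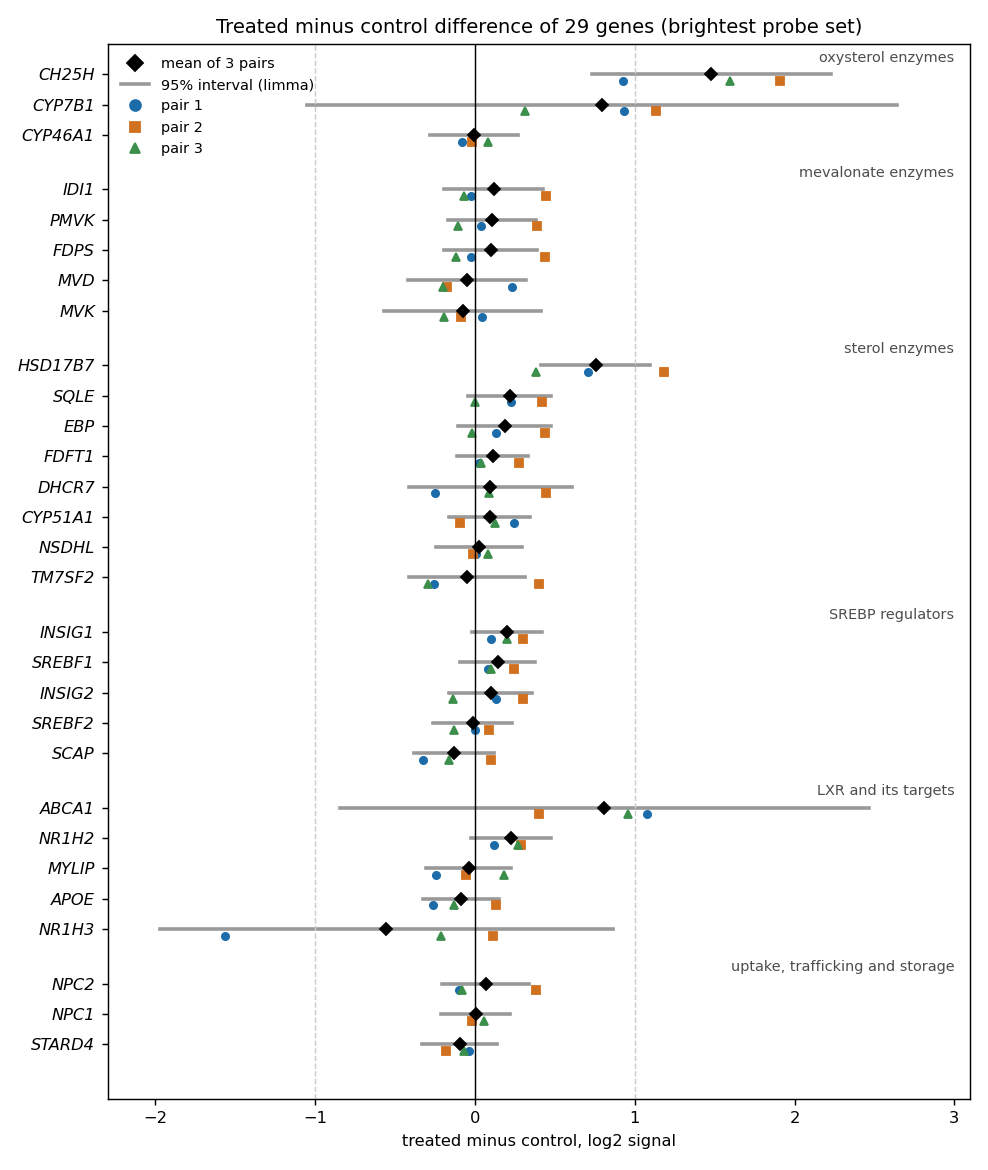
Treated minus control difference in log2 signal for the 29 measured genes, ordered by role, with the mean of 3 pairs (diamond), its 95% interval from limma (grey bar) and each pair (colored symbols). The interval of CH25H (0.73 to 2.23) and that of HSD17B7 (0.41 to 1.10) lie above 0, and those of 24 genes lie between −1 and 1.

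In the limma fit most of these genes were bounded closely. For 24 of the 29, the 95% interval of the difference lay between −1 and 1, which held for 65.0% of all named genes, and for 22 it lay between −0.5 and 0.5. The 5 genes whose interval passed −1 or 1 were CH25H, HSD17B7, CYP7B1, ABCA1 and NR1H3, and the last 3 of these had mean log2 signals under 6 and the widest intervals. Besides CH25H and HSD17B7, adjusted p-values lay between 0.751 and 0.995. The widths rest on a variance prior that follows the signal level. The 29 genes were also brighter, with a median log2 signal of 10.26 beside 8.46 over all named genes. With no trend in that prior, the unadjusted p (limma) of INSIG1 rose from 0.069 to 0.277. That of CYP7B1 fell from 0.348 to 0.039, at the same difference.

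Among the oxysterol enzymes, CH25H, the hydroxylase of the endoplasmic reticulum whose product restrains SREBP and has antiviral effects, had the largest difference of the 29 genes. Its log2 signal was 7.91, 7.87 and 7.10 in the treated retinas of pairs 1 to 3, against 6.98, 5.96 and 5.50 in the control retinas. All 3 treated retinas lay above all 3 control retinas, although the lowest treated retina and the highest control retina came from different pairs and were close. CH25H averaged 7.63 ± 0.46 in treated and 6.15 ± 0.76 in control retinas (SD, n = 3 each). The log2 difference was 1.48 (SE 0.32, a fold of 2.79), with 0.93, 1.91 and 1.60 in the 3 pairs, and the adjusted p from limma was 0.397. Leaving out a pair gave 1.75, 1.26 and 1.42. CH25H had a single probe set on the array, and the study itself lists the gene among those it selected on these samples, so its place here is not independent evidence.

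The summed signal of microglia and macrophage markers was also higher on the treated side. Of 14 such markers 13 were measured, and 8 of these had a difference above 0, where 55.5% of all named genes did. The median over the list was 0.61. The others lay below 0: CD68 (−0.19), the brightest marker, TREM2 (−0.70), ITGAM (−0.43), P2RY12 (−0.27) and C1QC (−0.11). At an unadjusted p under 0.05 (limma) 6 of the 13 were higher, where 5.02% of all named genes were, and 0 were lower. None passed after adjustment. The summed linear signal of the 13 markers was 3443 to 3752 in treated retinas and 2886 to 3145 in control retinas, with no overlap. No marker was at a log2 signal of 0 on any array. Their part in the CH25H difference was not tested, and in such bulk RNA more cells of a type and more RNA per cell cannot be told apart.

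The other 2 measured oxysterol enzymes gave no difference that passed. CYP7B1, which clears oxysterols by hydroxylating them further, had a difference of 0.79 (SE 0.79, interval −1.05 to 2.64) and was higher in 3 of 3 pairs. Its signals were dim and differed more between pairs than between sides, at 5.09, 4.40 and 1.94 in treated and 4.16, 3.27 and 1.63 in control retinas. CYP46A1, the cholesterol hydroxylase of neurons, averaged 9.39 ± 0.21 in treated and 9.40 ± 0.13 in control retinas (SD, n = 3 each). Its interval of −0.28 to 0.27 was among the narrow ones, and the pairs lay on both sides of 0.

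**Figure D2:**
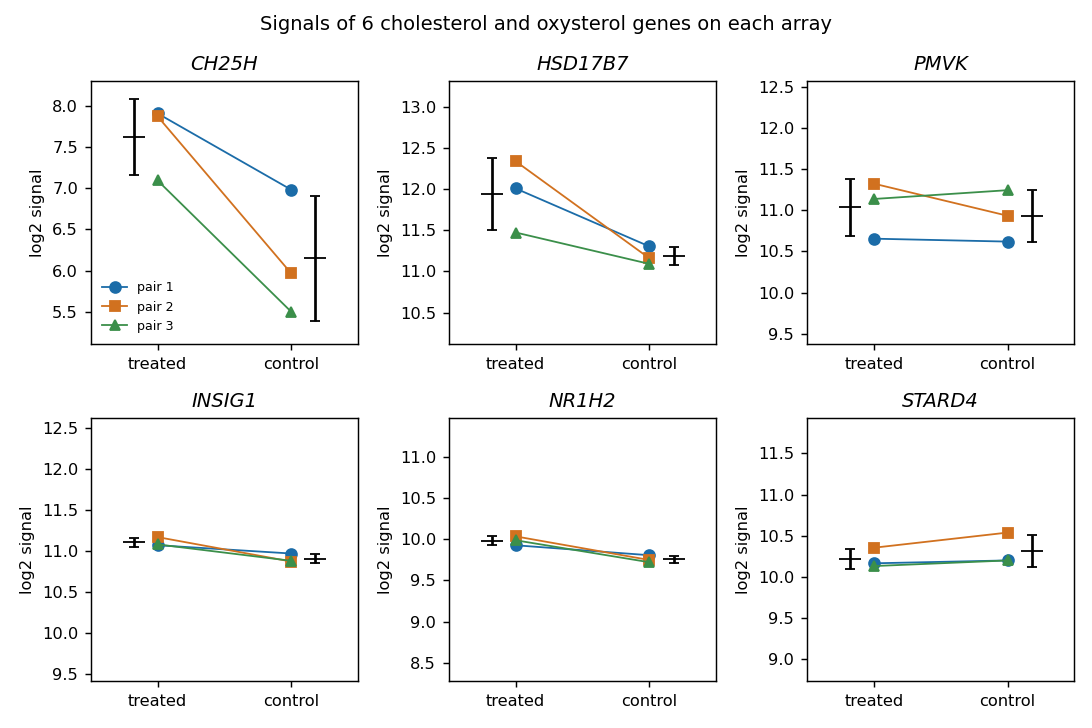
Log2 signal on each array for 6 genes, with treated retinas on the left, control retinas on the right, lines joining both retinas of a pair, and black bars showing mean ± SD of 3 retinas. All panels span the same number of log2 units. CH25H, HSD17B7, INSIG1 and NR1H2 show no overlap between sides, while PMVK and STARD4 do.

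The enzymes of the mevalonate pathway stood close to 0. Of the 5 measured, 3 were above 0 as deposited, with a median of 0.098 and a range of −0.078 to 0.12, and every interval lay between −1 and 1. The one with the largest test statistic was PMVK, which phosphorylates mevalonate phosphate. Its signal was 10.66, 11.32 and 11.14 in treated and 10.62, 10.93 and 11.25 in control retinas, a difference of 0.11 (SE 0.12), and the sides overlapped. IDI1, which isomerizes the isoprene unit, stood at 0.12 and FDPS, which joins isoprene units to farnesyl diphosphate, at 0.098. MVK, the first mevalonate kinase, stood at −0.078 and MVD, the decarboxylase that follows PMVK, at −0.050. IDI1, FDPS and PMVK each owed their sign to pair 2, and without it they stood at −0.046, −0.073 and −0.036.

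Of the 8 sterol enzymes measured, from squalene onward, HSD17B7 stood apart. This reductase acts on the keto group left after removal of a methyl group from the sterol ring, and it also converts estrone to estradiol. Its signal was 12.01, 12.34 and 11.47 in treated and 11.30, 11.16 and 11.09 in control retinas, so that every treated retina was above every control retina. The mean was 11.94 ± 0.44 in treated and 11.18 ± 0.11 in control retinas (SD, n = 3 each). The log2 difference was 0.76 (SE 0.15, a fold of 1.69), with 0.71, 1.18 and 0.38 in the 3 pairs, and the adjusted p from limma was 0.285. Its unadjusted p was 0.0010 in that limma fit, 0.040 in limma with no trend in the variance prior and 0.083 by the methods' paired t-test. With 2 pairs in limma the gene passed where replicate 2 was left out (0.54, adjusted p = 0.0215) and where replicate 3 was (0.94, adjusted p = 0.0298). It did not pass where replicate 1 was left out (0.78, adjusted p = 0.989). A fit of 2 pairs has little spread of its own, so these p-values lean strongly on the variance prior.

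The 2 dimmer probe sets of HSD17B7 gave a different picture. The first gave 0.56 (SE 0.32), made up of 0.016, 1.72 and −0.063 in the 3 pairs, and the second 0.27 (SE 0.22), made up of 0.018, 0.75 and 0.041. Both therefore showed a difference mainly in pair 2, whereas the brightest showed it in all pairs.

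The remaining 7 sterol enzymes lay between −0.052 and 0.22, and the interval of each lay between −1 and 1. SQLE, the monooxygenase of squalene and a rate-limiting step, stood at 0.22 (interval −0.044 to 0.48), EBP, the isomerase of the sterol ring, at 0.18, FDFT1, the squalene synthase, at 0.11 and DHCR7, which makes cholesterol in the last step of one branch, at 0.095. CYP51A1, the lanosterol demethylase, stood at 0.092, NSDHL, a dehydrogenase that works just before HSD17B7, at 0.025, and TM7SF2, a sterol reductase, at −0.052. NSDHL and HSD17B7 act on the same stretch of the pathway, yet NSDHL gave 0.0064, −0.012 and 0.081 in the 3 pairs. Over the mevalonate and sterol enzymes together, 10 of 13 were above 0 in the deposited values and 13 of 13 with median centring of the arrays, with medians of 0.098 and 0.19. Over all named genes the medians in these settings were 0.032 and 0.13, the same shift.

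All 5 regulators of synthesis had intervals between −0.5 and 0.5. SREBF2, the master factor of cholesterol synthesis, stood at −0.015 (interval −0.26 to 0.23) and SREBF1, its relative that favors fatty acid genes, at 0.14. SCAP, the sterol sensor that escorts them, stood at −0.13 and INSIG2, a retention protein, at 0.098. The 3 dimmer probe sets of SREBF2 all lay lower than its brightest, at −0.26, −0.25 and −0.13. INSIG1, which retains SCAP in the endoplasmic reticulum and is itself an SREBP target, had signals of 11.07, 11.17 and 11.08 in treated retinas, against 10.97, 10.87 and 10.88 in control retinas. The sides did not overlap, and the difference was 0.20 (SE 0.094, interval −0.020 to 0.42, adjusted p = 0.751). A second probe set of INSIG1 gave 0.035.

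Of the LXR receptors and their targets, NR1H2 (LXR beta, present in most cells) had signals of 9.93, 10.04 and 9.99 in treated retinas and 9.81, 9.75 and 9.72 in control retinas. Its sides did not overlap either, and the difference was 0.23 (SE 0.11, interval −0.027 to 0.48, adjusted p = 0.752). In all, 4 of the 29 genes had every treated retina above every control retina (CH25H, HSD17B7, INSIG1 and NR1H2) where 4.3% of all named genes did, and 0 had the reverse where 2.7% did. With median centring of the arrays, 2 of these were left (CH25H and HSD17B7), and quantile normalization kept all 4. In 3 of 3 pairs 9 genes were higher, where 19.3% of all named genes were, and 1 was lower (STARD4), where 13.6% were.

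The other genes of LXR signaling gave no common direction. ABCA1, the pump that loads cholesterol onto apolipoproteins, stood at 0.81 (SE 0.71, interval −0.84 to 2.46) at a dim signal, with 3.36, 5.26 and 5.12 in treated and 2.29, 4.86 and 4.17 in control retinas. NR1H3 (LXR alpha, a receptor of macrophages and liver) stood at −0.55 (SE 0.61), and its pairs gave −1.57, 0.12 and −0.21. MYLIP, the ligase that marks the LDL receptor for breakdown, stood at −0.041.

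APOE, the main lipid carrier that glia secrete, averaged 12.35 ± 0.38 in treated and 12.44 ± 0.29 in control retinas (SD, n = 3 each) by its brightest probe set, a difference of −0.087 (interval −0.33 to 0.15). A dimmer probe set stood lower at −0.48 (SE 0.13, adjusted p = 0.576) and was the 1 of 26 dimmer probe sets at an unadjusted p under 0.05. It gave −0.60, −0.37 and −0.45 in the 3 pairs, and another gave −0.15. Of these 3 probe sets, the one at −0.48 alone lacks the suffix by which Affymetrix marks probes shared with other transcripts. GFAP, the filament of astrocytes and reactive Müller cells, was higher by 2.14 (adjusted p = 0.0303). All 4 astrocyte markers lay above 0, with summed linear signals of 6424 to 20429 in treated and 2796 to 5408 in control retinas. That separation came from GFAP, since the sums of the other 3 markers, taken after the values were seen, were 1258 to 3717 in treated and 1167 to 3037 in control retinas and overlapped. The 7 measured markers of Müller glia, of 8, had 4 above 0 and summed linear signals of 84699 to 112414 in treated and 88131 to 115751 in control retinas. Before adjustment (limma, p under 0.05) 2 of them were higher, where 5.02% of all named genes were. At the same threshold 3 were lower, where 3.01% were. The part of these glial markers in the APOE values was not tested.

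The 3 measured genes of cholesterol traffic also had intervals between −0.5 and 0.5. NPC1 and NPC2, which pass cholesterol out of the lysosome, stood at 0.0042 (interval −0.21 to 0.22) and 0.067 (interval −0.21 to 0.34). STARD4, a carrier of sterol in the cytosol and an SREBP target, had signals of 10.16, 10.35 and 10.13 in treated retinas and 10.20, 10.54 and 10.20 in control retinas. Its difference was −0.096 (SE 0.10) and its sides overlapped. A dim second probe set of STARD4 stood at −1.14 (SE 0.58), with 0.11, −1.58 and −1.95 in the 3 pairs.

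Of the 17 genes with more than 1 probe set, 7 had a probe set with a difference of the opposite sign to the brightest (IDI1 at −0.060, MVK at 0.24, NSDHL at −0.058, SQLE at −0.037, INSIG2 at −0.024, SREBF1 at −0.10 and MYLIP at 0.032). Only in TM7SF2 and STARD4 did a probe set lie more than 0.5 away, at −0.65 and −1.14. The brightest probe sets of 5 genes (IDI1, EBP, TM7SF2, SREBF1 and APOE) have the suffix by which Affymetrix marks probes shared with other transcripts, so their signals may include related sequences. When each gene was taken as the mean of all its probe sets, TM7SF2, APOE and STARD4 were lower at an unadjusted p under 0.05 and 0 genes passed after adjustment. The share of all named genes lower in this setting is not given, so this count has no background to be read against.

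**Figure D3:**
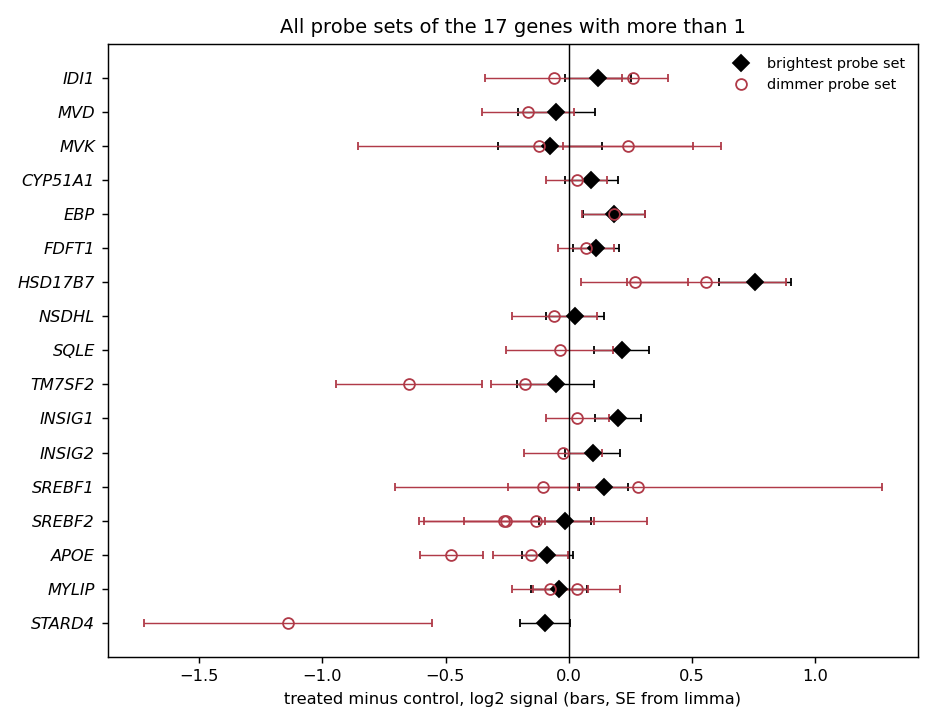
Treated minus control log2 difference of every probe set of the 17 genes that have more than 1, with bars for the SE from limma. Black diamonds are the brightest probe sets and open circles the dimmer ones. Those of HSD17B7 all lie above 0 (0.27 to 0.76), the 2 dimmer ones mainly through pair 2. The dim probe set of STARD4 lies at −1.14 with an SE of 0.58.

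The pairs did not contribute alike. In pair 2, 21 of the 29 genes were above 0, with a median of 0.29, whereas pair 1 had 17 above 0 with a median of 0.023 and pair 3 had 15 with a median of 0.0014. Over all named genes 55.9%, 55.2% and 49.5% were above 0 in pairs 2, 1 and 3, with medians of 0.069, 0.036 and −0.0036. The arrays of pair 2 also differed most in their overall level, with a median log2 signal of 6.44 on the treated and 6.74 on the control array, and the part of this in the pair 2 values was not tested. Without pair 2 the median of the 29 genes was 0.00091, TM7SF2, SCAP and APOE were lower at an unadjusted p under 0.05, and CH25H and HSD17B7 were higher. The shares of all named genes at that threshold are not given for this setting.

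For most of these genes the arrays of replicate 1 stood further from the others than the sides from each other. The retinas of replicate 1 differed from the 4 retinas of replicates 2 and 3 by more than treated differed from control retinas in 24 of the 29 genes, and in 69.5% of all named genes. In 13 genes both retinas of replicate 1 lay below all 4 others (44.8%, beside 23.2% of all named genes), among them SREBF1 (−1.08), EBP (−1.10), TM7SF2 (−1.25) and APOE (−0.53). IDI1 was the 1 gene in which both lay above (0.85), which is 3.45% where 17.6% of all named genes did. The 29 genes were brighter than all named genes (median log2 signal 10.26 beside 8.46), and the part of signal level in these shares was not tested. Of the 26 dimmer probe sets 9 had both retinas of replicate 1 above the others (34.6%, beside 34.8% of the dimmer probe sets of all named genes) and 7 had both below (26.9%, beside 11.1%). The share above was thus close to that of the dimmer probe sets of all named genes. Those above included probe sets of SREBF2 (2.72), STARD4 (2.59) and INSIG2 (1.80), whose brightest probe sets gave 0.020, −0.12 and 0.030. With 1 replicate number on one side of this contrast it is a description of these arrays. Animal and array handling cannot be told apart in it. The arrays of replicate 1 had the highest median log2 signals of the 6 (6.98 treated and 7.03 control).

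**Figure D4:**
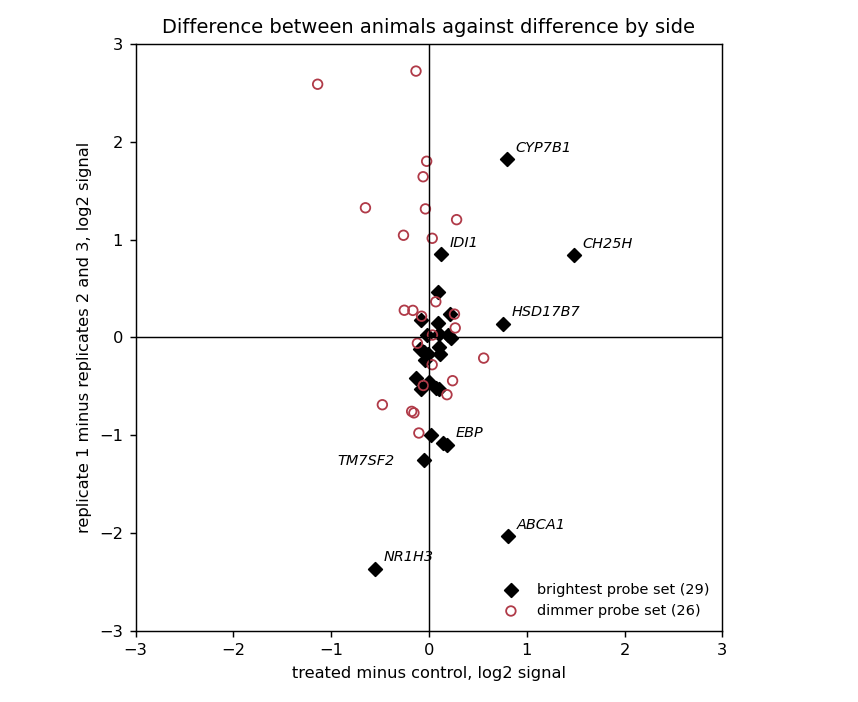
Mean log2 signal of replicate 1 minus that of replicates 2 and 3 (vertical) against the treated minus control difference (horizontal) for all 55 probe sets, on equal axes. Points spread further up and down than sideways, with NR1H3 at −2.36 and ABCA1 at −2.03 lowest, and CH25H (1.48) is farthest to the right.

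A wider list of 62 names from lipoprotein uptake, sterol transport, esterification, bile acid and steroid synthesis and SREBP processing held 34 measured genes. Of these 21 were above 0 (55.5% of all named genes), with a median of 0.074. Before adjustment (limma, p under 0.05) 1 was higher and 1 lower, where 5.02% and 3.01% of all named genes were. After adjustment 0 passed. As a check of the tissue, the 5 measured of 8 rod markers had a median log2 signal of 14.98, beside 8.46 over all named genes. Rod sums were 130531 to 166536 in treated and 152378 to 178887 in control retinas, with 0 of 5 markers above 0. At an unadjusted p under 0.05 (limma) 2 of the 5 were lower, where 3.01% of all named genes were. The 4 measured markers of pigment epithelium, a tissue that was dissected away, all lay below 0 with a median of −0.42, and their sums were 4026 to 6016 in treated and 4381 to 6843 in control retinas. Their part in the values of the lipid genes was not tested.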

How the data were processed

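Total RNA of 6 retinas was labelled and hybridized singly to Affymetrix Rhesus Macaque Genome Arrays. The authors computed MAS 5.0 signals in GeneSpring 11.0, which scales each array to a common mean, and deposited their log2 values, with signals under 1 set to 1. Detection calls were not used. The 2% trimmed mean of linear signals was 505.3 to 505.8 and 22.6% to 29.7% of probe sets lay under a log2 signal of 5. The number of arrays limits the precision.

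Treated minus control was fitted for all 52024 probe sets in limma 3.58.1 (R 4.3.3), blocked on replicate number with a trended variance prior, with Benjamini-Hochberg adjustment over all of them. Samples were paired by the replicate numbers in the labels, which name no animal. That equal numbers mean the same animal was inferred: the design names the opposite eye as control, and the methods state a paired test. Deviations from the group means correlated at 0.357, 0.137 and 0.161 between arrays of the same number and at −0.243 to 0.104 between others. Genes came from platform symbols (24956 probe sets with 1 symbol, 361 with several, 26707 with none). Updating them by gene identifier through the T2T-MMU8v2.0 gene table (98.6% found) changed no member. No coordinates were used. Alternatives were the methods' paired t-test, no block, no trend, quantile and median scaling, a mean log2 minimum of 6, a floor of 5, the mean of a gene's probe sets, updated symbols and leaving out each replicate. The code was tested on simulated data. Members and lists were chosen with earlier results of these data known. Values of every array are given for CH25H, for genes at an unadjusted p under 0.05 and for the gene with the largest test statistic in each of 6 roles, and those of CYP7B1 and ABCA1 were added after their values were seen. Python 3.11.15 and matplotlib 3.10.9 were used for summaries and plots.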

Additional observations from a re-analysis of the deposited data

How the results depend on the processing

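No gene passed after adjustment in the paired fit, and the count was also 0 with no replicate block, with the methods' paired t-test, with no trend, under both other scalings, with the filter or floor on dim probe sets, with the mean of all probe sets and with updated symbols. It ranged from 0 to 1 when a replicate was left out, HSD17B7 being the gene. The count higher at an unadjusted p under 0.05 was 2 with no replicate block (the pairing changed no call), 1 by the methods' paired t-test, 4 with no trend (CYP7B1 and ABCA1 added) and 4 with signals under 5 raised to 5 (INSIG1 and NR1H2 added). The count lower was 3 with the mean of all probe sets and ranged from 0 to 3 when a replicate was left out. For these unadjusted counts, shares over all named genes are given for the main fit alone. Over these alternatives CH25H lay between 1.26 and 1.75 (adjusted p = 0.207 to 1.000) and HSD17B7 between 0.53 and 0.94 (adjusted p = 0.0215 to 1.000). Genes near 0 changed sign. Under quantile normalization NPC1 was −0.0077. Median centring of the arrays adds 0.097 to every gene alike, and by that shift alone CYP46A1 was 0.092, MVK 0.019, MVD 0.047, TM7SF2 0.045, SREBF2 0.082, APOE 0.010, MYLIP 0.056 and STARD4 0.0012. With the mean of all probe sets, MVK was 0.015 and NSDHL −0.017. Leaving out a replicate gave −0.049 to 0.031 for CYP46A1, −0.080 to 0.27 for DHCR7, −0.073 to 0.21 for FDPS, −0.046 to 0.21 for IDI1, −0.0026 to 0.22 for INSIG2, −0.19 to 0.026 for MVD, −0.15 to 0.062 for MYLIP, −0.020 to 0.017 for NPC1, −0.090 to 0.15 for NPC2, −0.0028 to 0.044 for NSDHL, −0.036 to 0.21 for PMVK, −0.066 to 0.043 for SREBF2 and −0.28 to 0.070 for TM7SF2. Apart from the shift under median centring, the cause of these changes was not tested. CYP7B1, ABCA1 and NR1H3 were too dim for the filter. The labels call the replicates by number only. The p-values of the paired limma fit rest on the spread between 3 pairs together with the variance prior. Those of the paired t-test rest on that spread alone.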
